A study of Mus musculus with 4 samples.

Results

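Transcripts of 10 circadian clock genes were examined in limb skeletal progenitors of newborn mice. Members were taken by gene symbol: the activators Arntl and Clock, the repressors Per1, Per2, Per3, Cry1 and Cry2, the nuclear receptors Nr1d1 and Nr1d2, and the output gene Dbp. All 10 symbols were found, each once, among the 55487 genes of the deposited count table, and all 10 passed the filter on low counts that left 16157 genes. Hindlimb cells of pups at postnatal day 1 were sorted as Prx1-lineage cells without CD45, Tie2 and Ter119, and 2 libraries labelled cKO and 2 labelled WT were sequenced from their polyadenylated RNA. Total counts ran from 18266573 to 20152872.

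The titles call the libraries cKO or WT, while the genotype field gives Ecsitfl/fl;Rosa26mTmG for those titled cKO and EcsitPrx1;Rosa26mTmG for those titled WT, which is the opposite. In the study's methods, on a C57BL/6J background, cKO cells lack Ecsit, a mitochondrial assembly factor, where the Prx1 promoter drove Cre, which is limb mesenchyme. WT cells carry the same Cre with intact Ecsit. Both carry the Rosa26 mTmG reporter, by whose GFP the cells were sorted. Ecsit itself stood at 33.6 and 30.2 CPM in the libraries labelled cKO (replicates 2 and 3), against 12.6 and 18.9 CPM in those labelled WT (replicates 2 and 3), where CPM are counts scaled to a common library size. The gene that should be deleted was thus higher in the libraries labelled cKO (log2 fold change 1.02, adjusted p = 0.0245 from edgeR). The titles are followed below, and every direction turns round if the labels were exchanged. The sources used here do not say whether a library came from 1 pup or several, so p-values measure only the spread between these samples. They also do not give the hour at which the pups were taken, so the time of day cannot be told apart from the label.

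The mammalian clock is a feedback loop of transcription. CLOCK and its partner BMAL1, the product of Arntl, bind E-boxes and drive the Per, Cry, Nr1d1, Nr1d2 and Dbp genes, and PER and CRY proteins then return to the nucleus and repress their own activators. In the second loop the receptors REV-ERBα and REV-ERBβ, encoded by Nr1d1 and Nr1d2, repress Arntl through ROR elements, so that in adult tissues Arntl transcripts peak when Nr1d1, Dbp and Per transcripts are low. DBP acts on D-boxes in genes such as the Per genes. Bone and cartilage cells of adult mice hold such clocks, and rhythms in peripheral tissues are known to mature after birth.

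Promoter sequences of RefSeq on GRCm38.p6, from 250 bases before to 50 bases after a transcription start, were searched for short motifs of the loop. The table held 9 of the 10 genes, all but Per2, with 2 windows for Per1, 2 for Arntl, 3 for Clock and 1 for each other gene. The 4 below carry the E-box CACGTG, its variant CACGTT, the D-box TTATGTAA or the ROR element core TAGGTCA, each searched on both strands and shown in capitals. On the printed strand the variant of Cry1 reads AACGTG. They are Per1 at chr11:69098699-69098998 (plus strand), Cry1 at chr10:85185005-85185304 (minus strand), Per3 at chr4:151044616-151044915 (minus strand) and Arntl at chr7:113207261-113207560 (plus strand).
Per1: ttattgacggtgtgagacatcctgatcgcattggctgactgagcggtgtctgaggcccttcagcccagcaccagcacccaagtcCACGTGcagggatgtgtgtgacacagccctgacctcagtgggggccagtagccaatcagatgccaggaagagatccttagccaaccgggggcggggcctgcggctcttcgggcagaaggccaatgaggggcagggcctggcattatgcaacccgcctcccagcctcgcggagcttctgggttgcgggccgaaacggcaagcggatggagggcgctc
Cry1: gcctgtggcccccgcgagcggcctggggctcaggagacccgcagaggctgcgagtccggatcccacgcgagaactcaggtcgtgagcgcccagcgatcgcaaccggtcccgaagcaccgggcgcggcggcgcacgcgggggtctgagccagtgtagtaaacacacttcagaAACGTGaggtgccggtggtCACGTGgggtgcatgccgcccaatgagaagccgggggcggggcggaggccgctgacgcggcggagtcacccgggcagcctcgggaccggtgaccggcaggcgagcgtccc
Per3: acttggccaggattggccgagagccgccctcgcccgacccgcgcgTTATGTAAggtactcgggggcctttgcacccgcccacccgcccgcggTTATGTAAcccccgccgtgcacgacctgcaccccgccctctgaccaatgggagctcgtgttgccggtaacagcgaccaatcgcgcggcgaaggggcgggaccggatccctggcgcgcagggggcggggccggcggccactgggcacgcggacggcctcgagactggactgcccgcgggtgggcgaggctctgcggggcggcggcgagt
Arntl: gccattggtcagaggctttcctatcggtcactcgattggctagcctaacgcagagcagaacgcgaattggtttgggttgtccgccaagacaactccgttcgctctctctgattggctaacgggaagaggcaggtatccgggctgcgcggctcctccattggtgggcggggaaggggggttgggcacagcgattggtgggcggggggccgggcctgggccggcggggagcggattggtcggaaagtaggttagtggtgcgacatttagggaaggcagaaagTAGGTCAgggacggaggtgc

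Distances are from the transcription start of the printed window. The E-box began 166 bases before the start in Per1 and 60 bases before it in Cry1, where the variant stood at 79 bases. The printed window of Per1 lies inside the gene span given below, so its start is an internal one. The other window of Per1 and that of Arntl held none of the motifs. Per3 held the D-box at 205 and at 158 bases before its start. The ROR element core of Arntl lay 30 bases after the start. The variant E-box was also found in Cry2 and Nr1d1, and the cAMP response element TGACGTCA in none of the 9. Clock, Nr1d2 and Dbp held none of the motifs searched in these windows. Over all 32851 promoters of the table the E-box stood in 7.15%, its variant in 4.69%, the D-box in 0.938%, the ROR element core in 2.61% and the cAMP response element in 1.79%. A match describes the letters in these windows and is no evidence of binding.

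Clock, the repressors Per1, Per2 and Cry2, and the receptor gene Nr1d2 were lower in the libraries labelled cKO than in those labelled WT. Arntl, Per3, Cry1, Nr1d1 and Dbp did not pass the test. Of the 10 clock genes, 5 were called lower (Clock, Per1, Per2, Cry2 and Nr1d2) and 0 higher at an adjusted p under 0.05. Over all genes tested 14.3% were called lower and 14.1% higher. The median log2 fold change, cKO over WT, was -0.90 over the clock genes and -0.023 over all genes tested. At an unadjusted p under 0.05, 6 clock genes were lower and 0 higher with edgeR, beside 3600 lower and 3502 higher of the 16157 genes tested. DESeq2 called the same 5 genes and none higher. The libraries of the labels did not overlap in 8 of the 10 genes, beside 72.5% of all genes tested.

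**Figure D1:**
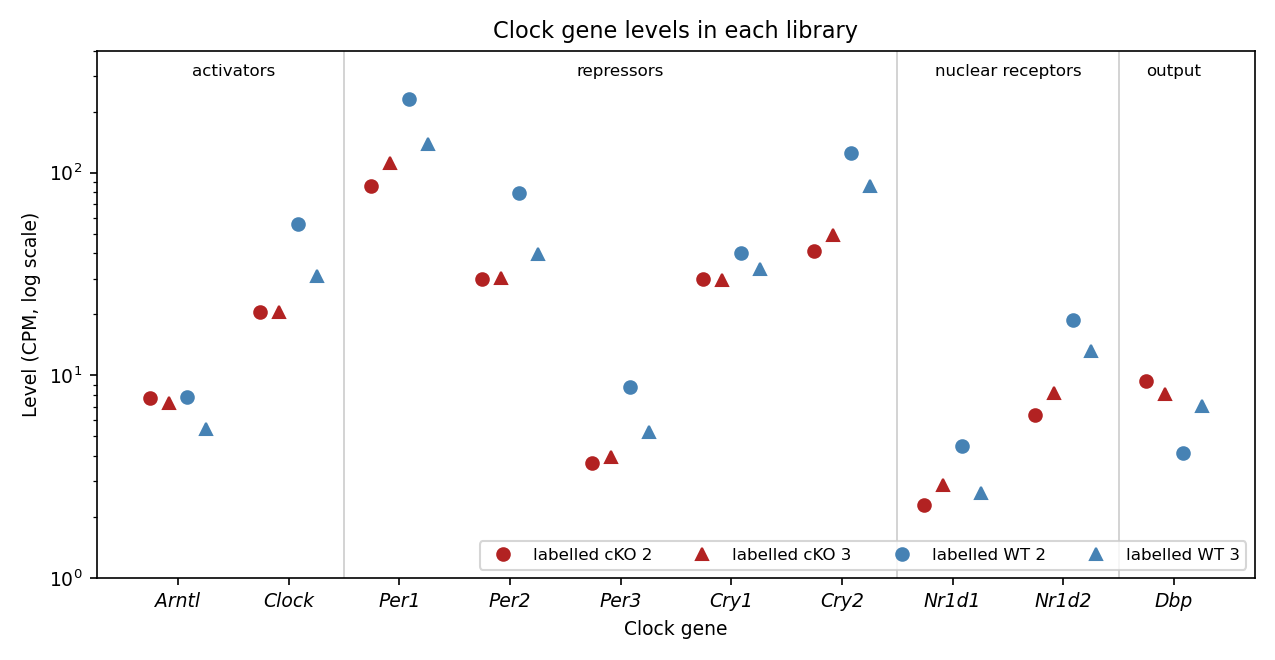
Level of each clock gene (CPM, logarithmic axis) in the libraries labelled cKO 2 and 3 (red) and WT 2 and 3 (blue), circles for replicate 2 and triangles for replicate 3, grouped by role. Per1, Per2, Per3, Cry1, Cry2, Clock and Nr1d2 lie lower in both red points than in both blue ones, Dbp lies higher, and Arntl and Nr1d1 overlap.

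Per1 and Per2 encode the repressors that set the length and phase of the cycle, and Per1 is also induced at once by growth factors, cAMP and glucocorticoids. Per1 lies at chr11:69095217-69109960 on the plus strand and Per2 at chr1:91415982-91459324 on the minus strand of GRCm38. Per1 had 86.4 and 111 CPM in the libraries labelled cKO, against 232 and 138 CPM in those labelled WT (2 and 3 in each pair). It was the highest clock gene in every library, and WT 2 stood well above the other 3. It averaged 98.8 ± 17.5 CPM under the cKO label and 185 ± 66.5 CPM under the WT label (SD, n = 2 each). Its log2 fold change was -0.91 (standard error, SE, 0.28; edgeR adjusted p = 0.0448). Per2 had 29.9 and 30.1 CPM in the libraries labelled cKO, against 79.3 and 39.5 CPM in those labelled WT. The libraries labelled cKO were alike, while WT 2 was higher than WT 3 by 1.00 on the log2 scale, as large as the fold change of -0.99 between the labels (SE 0.31, edgeR adjusted p = 0.0491). Per3, the least abundant of the Per genes and dispensable for the core loop (chr4:151003652-151044665, minus strand), had 3.67 and 3.93 CPM in the libraries labelled cKO, from 66 and 70 counts, against 8.78 and 5.27 CPM in those labelled WT, from 176 and 107 counts. Its log2 fold change of -0.88 was not called (95% interval -1.65 to -0.12, adjusted p = 0.0769 from edgeR). Another annotated gene overlaps Per3 on the same strand, and the level of that gene was not read here.

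The Cry genes, whose proteins carry the repression of CLOCK and BMAL1, parted from each other. They lie at chr2:92403646-92434043 (Cry2) and chr10:85131700-85185064 (Cry1), both on the minus strand. Cry2 had 40.9 and 49.0 CPM in the libraries labelled cKO, against 126 and 85.6 CPM in those labelled WT, or 45.0 ± 5.79 and 106 ± 28.2 CPM on average (SD, n = 2 each). It had the lowest adjusted p of the 10 genes, with a log2 fold change of -1.23 (SE 0.24, edgeR adjusted p = 0.0166). Cry1 had 29.9 and 29.7 CPM in the libraries labelled cKO, against 40.3 and 33.4 CPM in those labelled WT. Its groups did not overlap, but the difference of -0.31 was not called (95% interval -0.78 to 0.16, adjusted p = 0.277 from edgeR). Whether the fold changes of Cry1 and Cry2 differ was not tested.

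Among the activators Clock (chr5:76209868-76304792, minus strand) and Arntl (chr7:113207465-113314126, plus strand) differed in pattern. Clock, which encodes the partner of BMAL1 and an acetyltransferase, had 20.5 and 20.4 CPM in the libraries labelled cKO, against 55.8 and 31.1 CPM in those labelled WT. The libraries labelled cKO were nearly equal, and WT 3 lay between them and WT 2. Its log2 fold change was -1.08 (SE 0.29, edgeR adjusted p = 0.0306). Arntl, the single gene without which the loop stops in mice, had 7.68 and 7.30 CPM in the libraries labelled cKO, against 7.78 and 5.42 CPM in those labelled WT. The groups overlapped, WT 2 being the highest of the 4 and WT 3 the lowest, and the difference was 0.18 (95% interval -0.47 to 0.84, adjusted p = 0.643 from edgeR). The interval leaves room for a change of either sign.

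Transcripts of the receptors of the second loop, Nr1d2 (chr14:18204054-18239127, minus strand) and Nr1d1 (chr11:98767932-98775333, minus strand), gave few counts. Nr1d2 had 6.40 and 8.14 CPM in the libraries labelled cKO, against 18.8 and 13.2 CPM in those labelled WT, a log2 fold change of -1.14 (SE 0.28, edgeR adjusted p = 0.0246). Nr1d1 had 2.28 and 2.86 CPM in the libraries labelled cKO, from 41 and 51 counts, against 4.49 and 2.61 CPM in those labelled WT, from 90 and 53 counts. WT 3 lay between both libraries labelled cKO, and the difference of -0.46 was not called (95% interval -1.33 to 0.41, adjusted p = 0.372 from edgeR). Nr1d1 also overlaps Thra, a thyroid hormone receptor gene on the opposite strand, which had 392 and 422 CPM in the libraries labelled cKO and 178 and 202 CPM in those labelled WT. The library kit is not stated to keep strand, so reads of the shared stretch cannot be told apart.

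Dbp, the clock-driven transcription factor whose level follows CLOCK and BMAL1 most directly, went the other way in rank. The gene lies at chr7:45705088-45710203 on the plus strand. It had 9.41 and 8.08 CPM in the libraries labelled cKO, against 4.14 and 7.09 CPM in those labelled WT, from 169, 144, 83 and 144 counts in cKO 2, cKO 3, WT 2 and WT 3. WT 2 was the lowest of the 4 for Dbp, although it was the highest for the other 9 genes. The log2 fold change of 0.64 was not called (95% interval -0.10 to 1.38, adjusted p = 0.161 from edgeR). Dbp overlaps Sphk2 on the opposite strand, which had 35.3 and 38.6 CPM in the libraries labelled cKO and 30.1 and 30.6 CPM in those labelled WT.

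Levels between genes were compared per kilobase of exon, as mean CPM per kilobase. In the libraries labelled cKO the order was Per1 (17.5), Cry1 (8.92), Cry2 (7.11), Per2 (5.12), Dbp (2.92), Clock (1.49), Nr1d2 (1.34), Arntl (0.996), Nr1d1 (0.836) and Per3 (0.396). Only the neighbours Clock and Nr1d2 had ranges that crossed over the libraries labelled cKO. In the libraries labelled WT it was Per1 (32.9), Cry2 (16.7), Cry1 (11.0), Per2 (10.1), Clock (3.16), Nr1d2 (2.96), Dbp (1.88), Nr1d1 (1.15), Arntl (0.877) and Per3 (0.731). There the ranges of neighbours in the order crossed between Cry1 and Per2, Clock and Nr1d2, Dbp and Nr1d1, Nr1d1 and Arntl, and Arntl and Per3. Further apart in the order, Clock crossed Dbp and Nr1d1 crossed Per3. The repressors Per1, Per2, Cry1 and Cry2 filled the first 4 places under both labels.

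Exon length bears on these values, since levels in these libraries ran with it, also between libraries of 1 label. At the 13727 exon bases of Clock the trend over all genes was -0.75 on the log2 scale between cKO and WT and -0.52 between WT 3 and WT 2, and at the 2993 bases of Dbp it was 0.23 and 0.18. After the trend was taken out of each library, 4 clock genes were called lower (Per1, Per2, Cry2 and Nr1d2) and 0 higher, beside 13.7% and 13.8% of all genes tested. The log2 fold change was then -0.74 for Per1 (adjusted p = 0.0391), -0.79 for Per2 (adjusted p = 0.0465), -0.99 for Cry2 (adjusted p = 0.00787) and -1.01 for Nr1d2 (adjusted p = 0.0161), all from edgeR. Clock lost its call, with corrected levels of 26.5 and 26.6 CPM in the libraries labelled cKO, against 35.9 and 28.7 CPM in those labelled WT, and a log2 fold change of -0.28 (95% interval -0.69 to 0.12, adjusted p = 0.258 from edgeR). Arntl moved to 0.54 (adjusted p = 0.112) and Per3 to -0.36 (adjusted p = 0.316), Cry1 to -0.48 (adjusted p = 0.0833), Nr1d1 to -0.69 (adjusted p = 0.197) and Dbp to 0.43 (adjusted p = 0.253), with no call from edgeR.

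**Figure D2:**
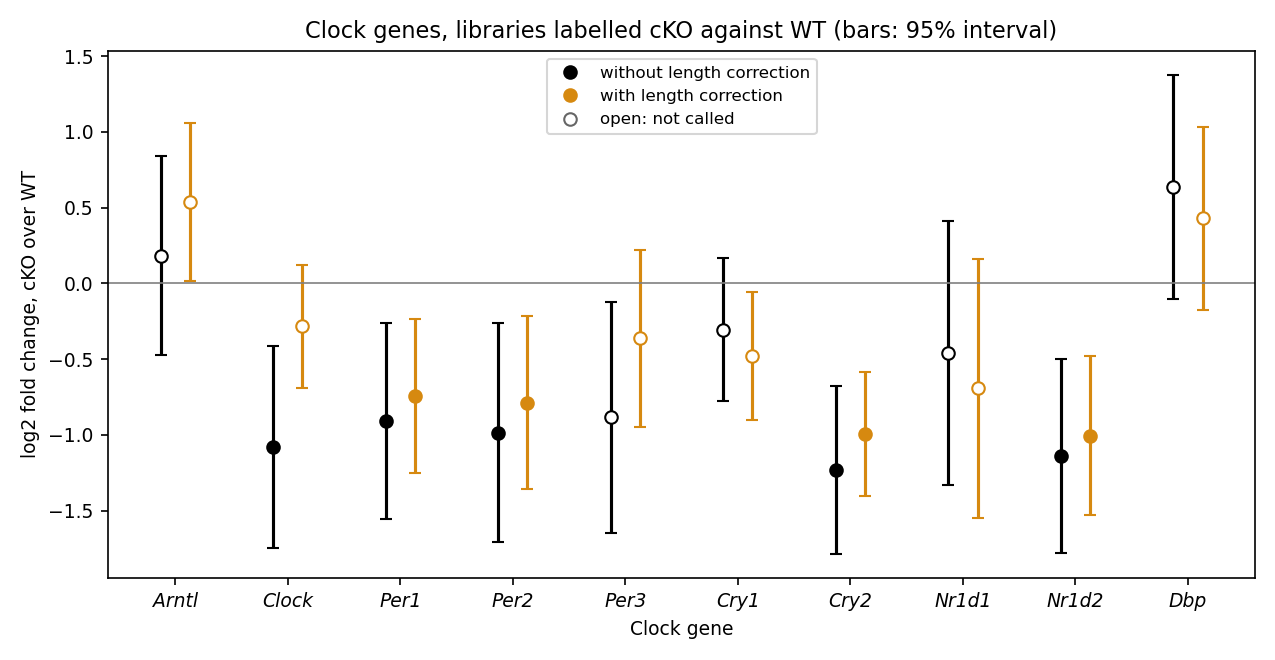
Fold change of each clock gene on the log2 scale, cKO over WT, without (black) and with (orange) the correction for exon length, with 95% intervals; filled points were called at an adjusted p under 0.05. Per1, Per2, Cry2 and Nr1d2 are filled in both fits, and Clock is filled at -1.08 without the correction and open at -0.28 with it.

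The calls also depended on single libraries. Each fit without 1 library left its label with a single one, so p-values there rest on the spread of the other label's pair. That pair was WT 2 and WT 3 without a cKO library, and cKO 2 and cKO 3 without a WT library. These pairs differed by 0.35 and 0.15 (median absolute log2 difference over all genes tested). Calls gained or lost in such fits cannot be told apart from that change of spread. Without cKO 2 or without cKO 3 none of the 10 clock genes was called by edgeR in either direction, and Cry2 stood at an adjusted p of 0.142 and 0.0591. Calls over all genes dropped as well, to 527 higher and 518 lower when cKO 2 was left out and to 506 and 756 when cKO 3 was. Without WT 2 the genes Clock, Per2, Cry2 and Nr1d2 were called lower, and every fold change but that of Arntl was nearer to 0 than with all 4 libraries. It was then -0.60 for Clock, -0.48 for Per1, -0.39 for Per2, -0.46 for Per3, -0.16 for Cry1, -0.92 for Cry2, -0.015 for Nr1d1, -0.85 for Nr1d2 and 0.31 for Dbp, while Arntl stood at 0.47. Without WT 3 the log2 fold change was -1.44 for Clock, -1.23 for Per1, -1.40 for Per2, -1.20 for Per3, -0.43 for Cry1 and -1.48 for Cry2. Nr1d1 then stood at -0.80, Nr1d2 at -1.37, Arntl at -0.052 and Dbp at 1.08. Calls over all genes stood at 4459 higher and 4254 lower without WT 3 and at 3029 and 2564 without WT 2, beside 2275 and 2314 with all 4 libraries. With no filter on low counts Cry2 alone was called (adjusted p = 0.0475 from edgeR).

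Whether libraries shared a clock phase was read from ratios within a library, which do not depend on its size. Genes that peak opposite to Arntl would all stand higher against Arntl at one phase and lower at the other. The log2 ratio of Per2 to Arntl was 1.96 and 2.04 in the libraries labelled cKO, against 3.35 and 2.87 in those labelled WT, a difference of -1.11. That of Nr1d1 to Arntl was -1.75 and -1.35 in the libraries labelled cKO, against -0.79 and -1.05 in those labelled WT, a difference of -0.63. That of Dbp to Arntl was 0.29 and 0.15 in the libraries labelled cKO, against -0.91 and 0.39 in those labelled WT. Per2 and Nr1d1 thus stood lower against Arntl in both libraries labelled cKO, while for Dbp the groups overlapped.

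The difference for Dbp to Arntl, 0.48, turned to -0.17 without WT 2 and to -0.083 with the length correction. For Per2 and Nr1d1 it was -1.27 and -1.18 with the correction. Further ratios to Arntl, added after the values were seen, are given as differences of mean log2 ratios. They were also lower in both libraries labelled cKO for Per1 (-1.08) and Per3 (-1.05). So were those of Nr1d2 (-1.33), Cry2 (-1.42), Cry1 (-0.51) and Clock (-1.23). The latter genes are not among those named above as opposite to Arntl, and their ratios were not read for phase. All ratios to Arntl share its counts, between 110 and 156 a library, so they are not separate observations. An exact two-sided permutation test over 2 against 2 libraries cannot go below 0.333, and 11 of the 12 ratios compared reached that value, with a Benjamini-Hochberg p of 0.364 over the 12. Dbp to Arntl gave an exact p of 1.00.

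**Figure D3:**
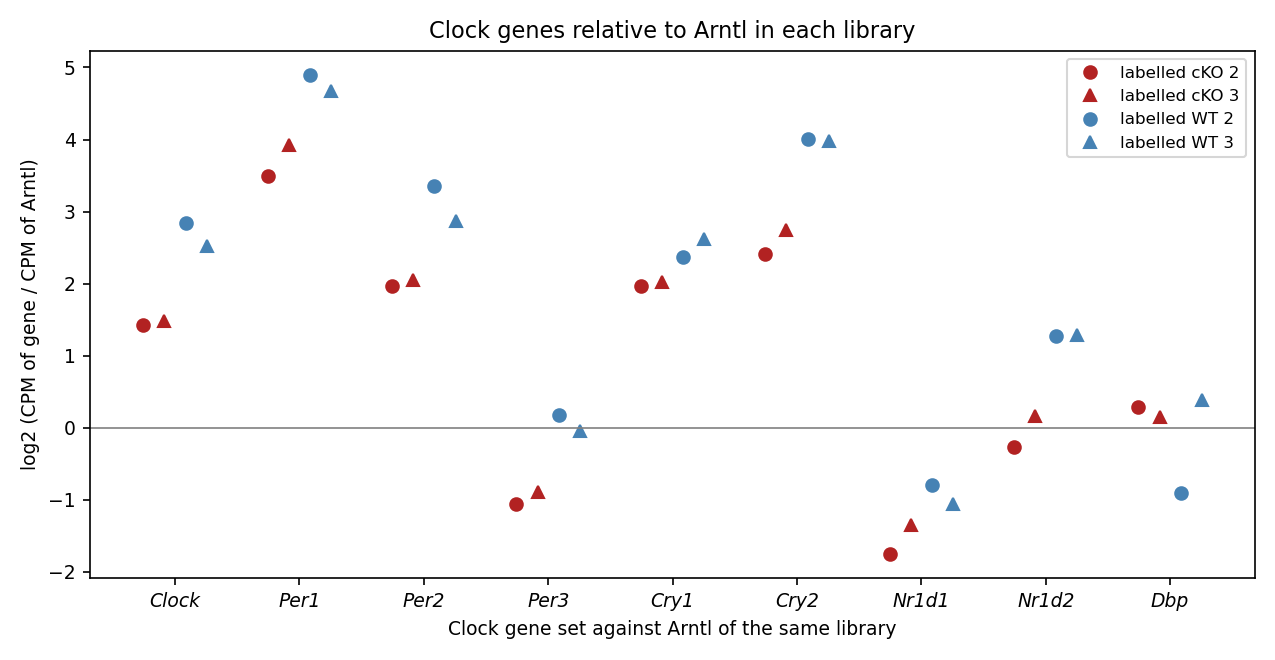
Level of 9 clock genes against Arntl of the same library, as log2 of the CPM ratio, for the libraries labelled cKO 2 and 3 (red) and WT 2 and 3 (blue). Both red points lie below both blue points for every gene shown but Dbp, where WT 2 is lowest at -0.91 and WT 3 highest at 0.39.

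Ratios among the E-box-driven genes Dbp, Nr1d1 and Per2, also added after the values were seen, were read in the same way. The log2 ratio of Dbp to Per2 was -1.67 and -1.90 in the libraries labelled cKO, against -4.26 and -2.48 in those labelled WT. WT 2 and WT 3 lay further apart in it than did the libraries labelled cKO. Dbp to Nr1d1, a pair that peaks close together in adult tissues, was 2.04 and 1.50 in the libraries labelled cKO, against -0.12 and 1.44 in those labelled WT. WT 3 stood next to cKO 3 in this ratio and WT 2 stood apart. Nr1d1 to Per2 varied less, at -3.71 and -3.39 in the libraries labelled cKO, against -4.14 and -3.92 in those labelled WT. Its groups overlapped after the length correction, at -3.92 and -3.58 in the libraries labelled cKO and -3.79 and -3.90 in those labelled WT.

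Over all 10 genes the libraries labelled cKO were closest to each other. The median absolute log2 difference between cKO 2 and cKO 3 was 0.15 over the clock genes and 0.15 over all genes tested. Between WT 2 and WT 3 it was 0.68 over the clock genes and 0.35 over all genes tested. WT 3 was nearer to cKO 3 (0.38) and cKO 2 (0.47) than to WT 2 in the clock genes, while over all genes tested it was nearest to WT 2, at 0.35 against 0.44 and 0.45. With the length correction the clock genes differed by 0.38 between WT 2 and WT 3, by 0.26 between cKO 3 and WT 3 and by 0.30 between cKO 2 and WT 3. In 9 of 10 genes WT 2 was above WT 3, Dbp being the exception.

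By distance between centred log2 CPM over the 4 libraries, the genes closest to Arntl were Loxl3, Ccdc159 and Foxk2, those closest to Nr1d1 were Lpcat2, Ing5 and Prkaa2, and those closest to Dbp were Fkbp3, Pdzd11 and Eef1akmt2. Their distances ran from 0.0182 (Fkbp3 to Dbp) to 0.0720 (Prkaa2 to Nr1d1). The nearest clock gene was Cry1 for Arntl (0.513) and for Nr1d1 (0.362), and Arntl for Dbp (0.960). These distances over 4 libraries are a description only.

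Other genes of the clock pathway moved both ways. Of 40 such genes, all tested, 3 were called higher, 11 lower and 26 neither, against the shares of 14.1% and 14.3% over all genes, and their median log2 fold change was -0.24. Of the 4 further repressors, Ciart, which blocks CLOCK and BMAL1, had 2.23 and 2.30 CPM in the libraries labelled cKO, against 4.79 and 4.58 CPM in those labelled WT (log2 fold change -1.05, adjusted p = 0.0389 from edgeR). Bhlhe40, an E-box competitor also called Dec1, had 93.1 and 105 CPM in the libraries labelled cKO, against 181 and 140 CPM in those labelled WT (-0.70, adjusted p = 0.0427 from edgeR). Of the ROR receptors, which activate Arntl at the elements where REV-ERBs repress it, Rora fell to 8.13 and 10.7 CPM in the libraries labelled cKO, against 32.5 and 18.4 CPM in those labelled WT (-1.43, adjusted p = 0.0193 from edgeR). Corrected for length, Rora stood at -0.67 (adjusted p = 0.0474 from edgeR). Both Rora values labelled cKO lay below both labelled WT, as for Bhlhe40 and Ciart.

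The lowest fold change of the pathway was that of Usp2, a clock-controlled deubiquitinase that acts on PER1 and other clock proteins. It had 7.01 and 9.54 CPM in the libraries labelled cKO, against 57.0 and 50.7 CPM in those labelled WT, a log2 fold change of -2.70 (SE 0.24, edgeR adjusted p = 0.00739). The length correction left it at -2.65. Noct, a rhythmic phosphatase of NADPH also called nocturnin, had 12.4 and 13.3 CPM in the libraries labelled cKO, against 51.7 and 34.2 CPM in those labelled WT (-1.74, adjusted p = 0.0128 from edgeR), and -1.15 with the length correction. Wee1, a cell cycle kinase with E-boxes, was called at -0.87 and Usp7, a deubiquitinase of CRY proteins, at -1.15. Among kinases Gsk3b was called at -1.15, and at -0.62 with the length correction, while Csnk1d (-0.18) and Csnk1a1 (-0.44), casein kinases that phosphorylate PER, were not.

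Among proteins that bind the clock complex, Kdm5a, Ncor1 and Sirt1 were called lower, at -1.18, -0.89 and -0.63. The methyltransferase gene Prmt5 was called higher at 0.94, with 114 and 125 CPM in the libraries labelled cKO, against 55.8 and 68.3 CPM in those labelled WT. Wdr5, a subunit of histone methyltransferases, was called higher at 0.75, while Nono (0.31) was not called. Outside this group, the tetraspanin gene Tspan4, listed as an output, was called higher at 0.83. Ddb1, listed under PER and CRY turnover, was not called (0.67, adjusted p = 0.0613 from edgeR). With the length correction 5 of the 40 pathway genes were called higher and 11 lower, beside 13.8% and 13.7% of all genes tested. Kdm5a (-0.40), Ncor1 (-0.17) and Tspan4 (0.42) were no longer called. Those gained were Btrc, a subunit of the ligase that marks PER proteins for breakdown (1.43, adjusted p = 0.00506), Ddb1 (0.91, adjusted p = 0.00951) and Tef among the higher genes, and Nfil3 and Cdkn1a among the lower ones. Leaving out cKO 2 gave 0 called higher and 2 lower, and leaving out cKO 3 gave 0 and 3. Leaving out WT 2 gave 8 called higher and 15 lower, and leaving out WT 3 gave 7 and 16, where calls over all genes also rose to the numbers given above. The relatives of Dbp that also bind D-boxes, Tef (0.28) and Hlf (0.038), and their competitor Nfil3 (-0.35) were not called. With the length correction Tef was called higher at 0.65 and Nfil3 lower at -0.76.

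**Figure D4:**
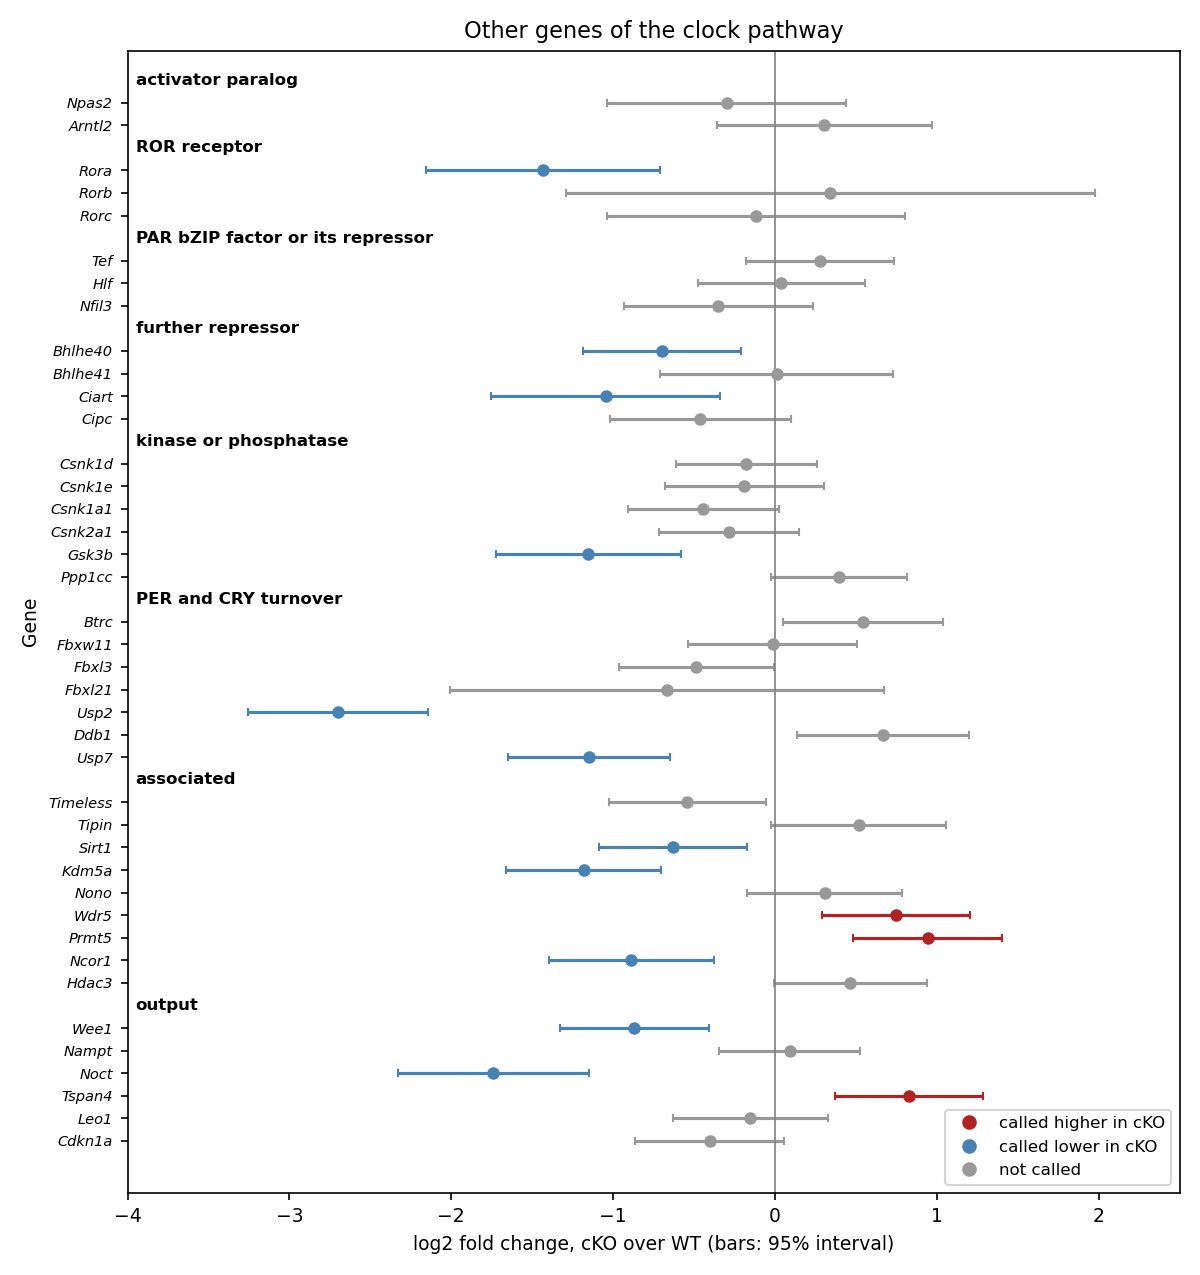
Fold change of 40 other clock pathway genes on the log2 scale, cKO over WT, with 95% intervals, grouped by role and coloured by call (red higher, blue lower, grey not called). Usp2 at -2.70 lies farthest left, and the 3 genes called higher are Wdr5, Prmt5 and Tspan4.

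Per1 and several other genes here respond within minutes to stress and to cell dissociation, so genes of that response were read beside them. Of 11 immediate early genes, 0 were called higher and 4 lower (Fosb, Atf3, Nr4a1 and Btg2). Their summed level was 7558 to 7783 CPM in the libraries labelled cKO, against 11480 to 12160 CPM in those labelled WT. By log2 fold change Btg2 (-1.65), Fosb (-1.61) and Nr4a1 (-1.58) differed most. Their means, cKO against WT, were 136 against 427 CPM, 954 against 2916 CPM and 548 against 1639 CPM. The fold change was below 0 in 8 of the 11, and above 0 for Junb (0.36), Ier2 (0.26) and Dusp1 (0.051), none of them called. After the length correction 6 were called lower, Fos (-0.70) and Zfp36 (-0.66) being added. Over all genes tested 14.3% were called lower, and 13.7% with the correction. Of 9 genes induced by glucocorticoids, which also induce Per1, 2 were called higher (Tsc22d3 and Ddit4) and 2 lower (Klf9 and Errfi1). With the length correction 2 of them were called higher and 3 lower, Mt2 being added to the lower ones (adjusted p = 0.0208 from edgeR). The share called higher over all genes tested was 14.1%, and 13.8% with the correction. The summed level of the 9 genes was 476 to 501 CPM in the libraries labelled cKO and 570 to 590 CPM in those labelled WT. The part of these responses in the clock genes was not tested.

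The limb mesenchyme gene Prrx1 stood at 194 to 213 CPM in the libraries labelled cKO and 264 to 265 CPM in those labelled WT, and of 8 progenitor markers 1, Ly6a, was called higher. The difference of Prrx1, -0.38, was 0.20 with the length correction, called in neither fit. Twist2 was called lower only with the correction, at -1.24 (adjusted p = 0.0309 from edgeR), and stood at -1.08 without it. It had 56.8 and 43.4 CPM in the libraries labelled cKO, against 57.4 CPM in WT 2 and 154 CPM in WT 3. The 5 haematopoietic markers summed to 3.34 to 3.59 CPM in the libraries labelled cKO and 1.82 to 2.15 CPM in those labelled WT. Cd52 stood at 0 in WT 2. Only 2 of the 5 were tested, and 1, Tyrobp, was called higher at 2.74, though not with the length correction. Tyrobp rested on 15 and 16 counts in the libraries labelled cKO, against 1 and 4 in those labelled WT. Of the 5 erythroid markers tested all were called higher, and 1 with the length correction, with 6 markers summing to 1914 to 2017 CPM in the libraries labelled cKO and 604 to 682 CPM in those labelled WT. The 5 skeletal muscle markers summed to 70.7 to 78.6 CPM in the libraries labelled cKO and 8.73 to 8.76 CPM in those labelled WT. Of the 3 tested, 2 were called higher (Acta1 and Ckm). Beside these counts of markers, 14.1% of all genes tested were called higher and 14.3% lower. With the length correction the shares were 13.8% and 13.7%. Of 5 endothelial markers none was called by edgeR, also at an unadjusted p under 0.05, and their sum was 47.7 to 48.0 CPM in the libraries labelled cKO and 49.2 to 57.4 CPM in those labelled WT. In bulk samples fewer cells of a type and less RNA per cell cannot be told apart, and the part of these cells in the clock genes was not tested.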

How the data were processed

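The authors deposited 1 table of raw counts per gene with no normalization. By the study's methods, paired reads were aligned to mm10 with STAR and exon fragments were counted with featureCounts. The notes given to GEO list other software, namely HTSeq 0.11.3, STAR 2.6.1b and DESeq2 1.28.1, beside the human build GRCh38.p12, and which of these made the table is not given in the sources used here. Groups and replicate numbers come from the sample titles. The 10 members, the lists and the tests were chosen with earlier results of these data known.

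Both labels were set against each other by the quasi-likelihood test of edgeR 4.0.16 under R 4.3.3, with the label as the only term. Low genes were dropped by filterByExpr (minimum count 10), libraries were scaled by TMM, and genes were called at a Benjamini-Hochberg p under 0.05 over 16157 genes. The study's own choice, DESeq2 with ashr, served as an alternative (versions 1.42.0 and 2.2.63). CPM are scaled by TMM. Exon lengths are unions of exons in GENCODE vM21 on GRCm38, which held 55227 of the 55487 genes. For the length correction, a lowess (span 0.3) of each library's deviation in log2 CPM (pseudocount 0.5) on log10 length served as an offset. The code was tested on simulated counts. Intervals for fold changes are at 95%. Totals were 18266573 to 20152872 counts a library.

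Named by rule are all 10 members, every called gene of the pathway list and its 4 most abundant uncalled genes. So are Ecsit and the 3 nearest genes to Arntl, Nr1d1 and Dbp (without Gm and Rik symbols). Other pathway and context genes named were chosen after their values were seen.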

Additional observations from a re-analysis of the deposited data

How the results depend on the processing

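Calls in the clock genes kept their direction under DESeq2 size factors, TMM without ribosomal protein and mitochondrial DNA genes, a minimum of 10 counts in every library, and DESeq2 with and without ashr, with 5 called lower in each. With no filter on low counts 1 clock gene was called lower, as were 1 higher and 4 lower of the other pathway genes and 869 higher and 665 lower of all genes, where 31336 genes were tested. With the length correction 5 other pathway genes were called higher and 11 lower, beside 2230 higher and 2209 lower of all genes. Leaving out each library gave 0 to 7 clock genes called lower and 0 to 1 higher, 0 to 8 other pathway genes higher and 2 to 16 lower, and 506 to 4459 of all genes higher and 518 to 4254 lower. In each of these fits the spread came from the pair of 1 label only. The fold change of Arntl ran from -0.052 (without WT 3) to 0.47 (without WT 2). The ratio of Dbp to Arntl ran from -0.17 (without WT 2) to 1.13, and was -0.083 with the length correction. That of Nr1d1 ran from -0.83 to -0.43 and that of Per2 from -1.35 to -0.87.

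The replicate numbers were not taken to pair the libraries: deviations of same-numbered libraries correlated at -0.10 across genes. With the replicate block 5 clock genes were called lower and 0 higher, and 2615 of all genes higher and 2753 lower. With the block and the length correction 4 clock genes were called lower and 0 higher. Of the other pathway genes 5 were then called higher and 11 lower, beside 2532 higher and 2635 lower of all genes. A crossed pairing, added after the data were seen, gave 6 clock genes lower, 2816 of all genes higher and 2917 lower. Nr1d1 rested on 41 to 90 counts a library and Per3 on 66 to 176.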
